A study of Mus musculus with 8 samples.

Results

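The genes described here are the non-classical MHC class I genes H2-Q4, H2-Q6, H2-Q7, H2-T10, H2-T22, H2-T23, H2-T24 and H2-M3 of the mouse H2 region on chromosome 17. They were chosen by name, and 7 of the 8 had a row among the 23998 features listed for either treatment, 6 of them for both treatments. In GRCm38 coordinates H2-Q4 lies at chr17:35379617-35385290, H2-Q6 at chr17:35424850-35430055 and H2-M3 at chr17:37270220-37274484 on the plus strand. On the minus strand lie H2-T24 (chr17:36005695-36020560), H2-T23 (chr17:36029773-36032855), H2-T22 (chr17:36037128-36042747) and H2-T10 (chr17:36115876-36121465). H2-Q6 was listed for untreated cells only, and H2-Q7 was not analysed here. RNA-seq had been made from MC38, a murine colon adenocarcinoma cell line, in 4 groups of 2 samples: control (wild type) and DENR KO cells. Both genotypes were either left untreated or given IFNγ at 20 ng/ml for a duration of 4 h. DENR is an RNA-binding protein that takes part in translation re-initiation, and the stable KO cells had been made with Cas9 and sgRNA lentiviruses. Whether the DENR KO samples numbered 1 and 2 come from different sgRNAs was not settled, and p-values then measure the spread between these samples, which may be technical.

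MHC class I molecules consist of a heavy chain and β2-microglobulin, and they carry peptides to the cell surface. The classical heavy chains H2-K1 and H2-D1 are highly polymorphic and present peptides to CD8+ T cells. The non-classical heavy chains vary little between strains and are seen by more specialised receptors. H2-T23 encodes Qa-1, which presents leader peptides of other class I chains to the CD94/NKG2A receptor of NK cells and CD8+ T cells. H2-M3 presents peptides with an N-formyl group, as bacteria and mitochondria make them. H2-T10 and H2-T22 encode closely related proteins that a subset of γδ T cells binds without a peptide. The annotation of these data lists H2-T10 as a polymorphic pseudogene and the other listed non-classical genes as protein coding. H2-Q6 and H2-Q7 belong to the Qa-2 family, and H2-Q4 lies in the same Q region. IFNγ acts through the kinases JAK1 and JAK2, and many class I promoters carry an element bound by interferon regulatory factors beside a module bound by the NLRC5 enhanceosome.

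The promoter of each gene was read from RefSeq (GRCm38.p6), from 250 bases before to 50 bases after the start site, for the 6 of 8 genes with an entry. The windows of 28 bases that hold the interferon-response letters are shown because they differ between H2-T23 and the others. Each is given 5′ to 3′ on the strand of its gene. Both H2-T23 windows lie inside the span listed for that gene, which begins at 36032855 on the minus strand. The RefSeq start site of H2-T23 thus lies inside this span too. Capitals mark GTTTCACTT, or, in H2-T23, the reverse complement of AANNGAAA, the core of the element bound by interferon regulatory factors.
H2-Q4, chr17:35379454-35379481 (+): atctccccaGTTTCACTTctgctcctaa
H2-Q6, chr17:35424688-35424715 (+): atctccccaGTTTCACTTctgctcctaa
H2-Q7, chr17:35439032-35439059 (+): atctccccaGTTTCACTTctgctcctaa
H2-T22, chr17:36042916-36042943 (-): attggcttaGTTTCACTTtcgaatcccc
H2-M3, chr17:37270123-37270150 (+): tcctctgagGTTTCACTTctctgtaact
H2-T23, first match, chr17:36032808-36032835 (-): atcctactgcTTTCTCTTtcataaagac
H2-T23, second match, chr17:36032765-36032792 (-): tcaattctcaTTTCTGTTggacgcctag

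The H2-Q4, H2-Q6 and H2-Q7 windows were identical over all 28 bases. AANNGAAA, searched on both strands, was found in 6 of 6 promoters of these genes and in 23.9% of the 32544 distinct promoters of the table. GTTTCACTT, whose letters were picked after the sequences had been seen and which contains a reverse match of AANNGAAA, was found in 5 of 6, all but H2-T23, and in 0.400% of all promoters. It began 154 bases before the start site in H2-Q4, 192 in H2-T22 and 102 in H2-M3. For H2-T23 the search reached less far before the listed gene than for the others. Whether GTTTCACTT lies further upstream of H2-T23 was not tested. CCAAT, the letters bound by NF-Y, was found in 6 of 6 and in 37.4% of all promoters. TGACG, the core of the element bound by CREB and ATF1, was found in H2-Q4, H2-Q7, H2-T22 and H2-M3 and in 20.9% of all promoters. A match describes letters in this window and is not evidence of binding.

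Reads on genes numbered between 17369020 and 18403790 per sample, and the values are normalized counts, which are reads divided by 1 size factor per sample. In control cells Denr had a mean of 1420 ± 25.5 (SD, n = 2) normalized counts with IFNγ, against 951 ± 8.09 in DENR KO cells (log2 fold change -0.58, limma adjusted p = 8.17e-06). Untreated, the log2 fold change of Denr was -0.56 (limma adjusted p = 0.00011). An sgRNA changes the coding sequence, so the mRNA level alone does not measure the loss of the protein. Of 8 epithelial and mesenchymal markers, Epcam and Cdx2 had no row, the keratins Krt8, Krt18 and Krt19 had group means of at most 5.09 normalized counts, and Vim had at least 62697 in the samples with IFNγ. The epithelial markers were thus near 0 in a line labelled as colon cancer. Of 14 markers of other cell types, 6 were listed, and the leukocyte gene Ptprc had a group mean of at most 1.53. Col1a1 and Pdgfrb were expressed, and Pdgfrb was higher in DENR KO cells with IFNγ (502 ± 9.80 against 371 ± 4.73, SD, n = 2, limma adjusted p = 0.00845). Its part in the values below was not tested.

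In untreated control cells the non-classical genes were expressed far below the classical ones. Per kilobase of gene length, H2-Q4 had a mean level of 251 normalized counts, H2-T22 had 238 and H2-M3 had 192. H2-T24 followed with a level of 65.7 per kilobase, H2-T23 with 30.0 and H2-T10 with 16.3. The samples of neighbours in this order did not overlap, although H2-Q4 (lowest 245 per kilobase) and H2-T22 (highest 243 per kilobase) nearly touched. Genes on the opposite strand overlap 1003 of 3414 exonic bases of H2-T22, 925 of 3419 of H2-T10 and 496 of 2596 of H2-Q4. The scale was not corrected for this. On the same scale H2-K1 had a level of 3203 and H2-D1 of 5126, so H2-Q4 stood at 7.83% of H2-K1 and H2-T10 at 0.509%. H2-Q6 had 0 reads in either untreated control and 6 and 2 reads in untreated DENR KO cells, too few for a fold change or a test.

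In untreated DENR KO cells H2-T22 was already first, with 275 normalized counts per kilobase against 249 for H2-Q4, and the rest of the order was that of the controls. In control cells with IFNγ, H2-T22 was the most abundant of these genes at 916 normalized counts per kilobase, ahead of H2-Q4 with 600 and H2-M3 with 533, and H2-T23 passed H2-T24 with 204 against 149 per kilobase. H2-T10 remained lowest with 56.8 per kilobase. H2-T22 then stood at 17.8% of the level of H2-K1, against 7.42% in untreated control cells. The order with IFNγ was the same in DENR KO cells, and no pair of neighbours overlapped. H2-T22 gave between 47.3% and 48.0% of the summed normalized counts of the listed non-classical genes in the samples with IFNγ, and between 39.9% and 42.9% in untreated samples.

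**Figure D1:**
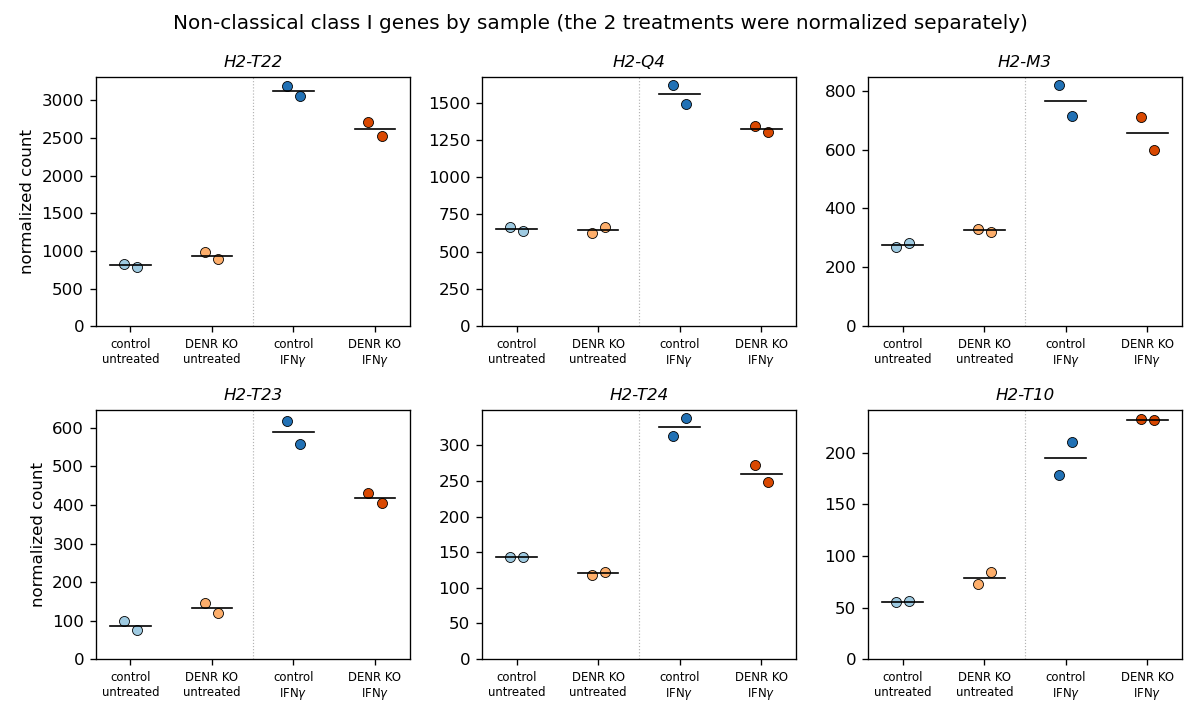
Normalized counts of 6 non-classical class I genes in each of the 8 samples (points), with the mean of each group (line), untreated at the left and with IFNγ at the right of each panel. In each panel the samples with IFNγ lie above the untreated ones, and with IFNγ both DENR KO samples lie below both controls in 5 panels and above them for H2-T10.

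The response to IFNγ was described as the ratio of mean RPM (the reads of a gene scaled to the total reads on genes of the sample) with IFNγ to that in untreated cells, with no test because the 2 tables were normalized separately. All 6 genes listed for both treatments were at least 2-fold higher with IFNγ in control cells, and again in DENR KO cells, with no overlap between samples. In DENR KO cells H2-M3 (2.05) and H2-Q4 (2.09) were close to this limit. Their lowest ratios between single samples were 1.85 and 1.997. Over all 13998 features tested, 3.14% met the same rule in control cells and 2.52% in DENR KO cells. H2-T23 had the highest ratio in control cells, from 4.81 to 33.0 RPM, which is 6.86-fold with a range of 5.72 to 8.35 over pairs of samples. In DENR KO cells H2-T23 went from 7.36 to 23.6 RPM, a ratio of 3.20 with a range of 2.83 to 3.67. The sample ranges of the 2 genotypes did not overlap.

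H2-T22 was 3.89-fold higher with IFNγ in control cells (45.1 to 175 RPM) and 2.85-fold higher in DENR KO cells (51.9 to 148). Its range was 3.73 to 4.06 in control cells and 2.63 to 3.10 in DENR KO cells, again without overlap. H2-M3 had ratios of 2.80 in control and 2.05 in DENR KO cells, and H2-Q4 had 2.41 and 2.09. For both, the ranges of the genotypes did not overlap. H2-T10 had ratios of 3.51 and 3.02 and H2-T24 of 2.29 and 2.20, and for these the ranges of the genotypes overlapped. The share of all features whose ranges separate between genotypes was not computed, so the separation of H2-T23, H2-T22, H2-M3 and H2-Q4 has no background. The ratio was lower in DENR KO cells for 6 of 6 genes. The share of all features with a lower ratio in DENR KO cells was not counted either. The median of the 6 genes was 3.16 in control cells and 2.53 in DENR KO cells, while the median of all features was 0.951 and 0.967.

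**Figure D2:**
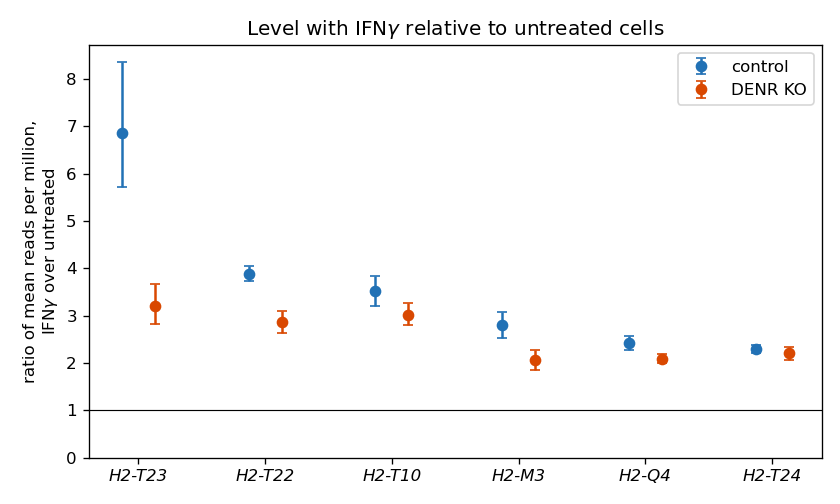
Ratio of mean RPM with IFNγ to untreated cells for 6 genes, in control and DENR KO cells. Points are ratios of means and bars run from the lowest to the highest ratio between single samples. H2-T23 shows the widest gap between genotypes, 6.86 against 3.20, and H2-T24 the narrowest.

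The classical genes themselves had smaller ratios: in control cells H2-K1 was 1.62-fold and H2-D1 1.41-fold higher with IFNγ, and in DENR KO cells 1.40-fold and 1.26-fold. B2m, the common light chain, was 1.72-fold and 1.49-fold higher. Of the 16 genes of classical class I and peptide loading, 9 met the 2-fold rule in each genotype, with a median ratio of 2.96 in control and 2.58 in DENR KO cells. The highest was Tap1, a subunit of the peptide transporter, at 20.4-fold and 15.1-fold.

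The comparison of DENR KO with control cells under IFNγ asks whether the loss of DENR changes these mRNAs in stimulated cells. H2-T23 and H2-T22 were lower in DENR KO cells and passed the test (limma, adjusted p under 0.05). That is 2 of the 6 genes tested, while 2.25% of all 13928 features passed as lower and 1.8% as higher. The higher calls fell from 251 to 146 without DENR KO replicate 1. In bulk RNA, fewer expressing cells and less RNA per cell cannot be told apart.

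H2-T23 stood at 619 and 558 normalized counts in controls, against 430 and 404 in DENR KO cells. Both DENR KO samples lay below both control samples. The log2 fold change was -0.49 ± 0.10 (SE), or 71.0% of control with a 95% interval of 61.8% to 81.6% (limma adjusted p = 0.00243). With all 8 samples in one fit the same change had a limma adjusted p of 0.0634.

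H2-T22 stood at 3190 and 3064 normalized counts in controls, against 2718 and 2524 in DENR KO cells. The groups did not overlap. The log2 fold change was -0.26 ± 0.06 (SE), or 83.8% of control with a 95% interval of 76.7% to 91.6% (limma adjusted p = 0.0156). The call was lost without DENR KO replicate 2 (limma adjusted p = 0.207) and without control replicate 1 (limma adjusted p = 0.0984).

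The other 4 genes did not pass. H2-Q4 had 1622 and 1494 normalized counts in control and 1347 and 1301 in DENR KO samples (log2 fold change -0.23 ± 0.07, SE, limma adjusted p = 0.0669). Its groups did not overlap, and without control replicate 2 its limma adjusted p was 0.0371. H2-T24 had 314 and 338 against 273 and 248 (log2 fold change -0.32 ± 0.12, SE, limma adjusted p = 0.154), also without overlap. H2-M3 had 819 and 713 against 711 and 599 (log2 fold change -0.23 ± 0.10, SE, limma adjusted p = 0.276), where the lower control and the higher DENR KO sample nearly met. Leaving out DENR KO replicate 2 or control replicate 1 brought the H2-M3 value to -0.10 and -0.13, and leaving out DENR KO replicate 1 brought it to -0.35. H2-T10 went the other way, with 178 and 210 normalized counts in control and 232 and 231 in DENR KO samples (log2 fold change 0.26 ± 0.13, SE, limma adjusted p = 0.426). The H2-T10 value was 0.14 without control replicate 1 and 0.38 without control replicate 2.

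With IFNγ both DENR KO samples thus lay below both controls for 5 of 6 genes and above them for 1, while 20.8% of all features lay below and 21.1% above in this way. This holds in normalized counts. In RPM the higher DENR KO sample of H2-M3 (40.2) lay above the lower control (39.9). The median log2 fold change of the 6 genes was -0.24, against -0.00036 for all features tested.

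**Figure D3:**
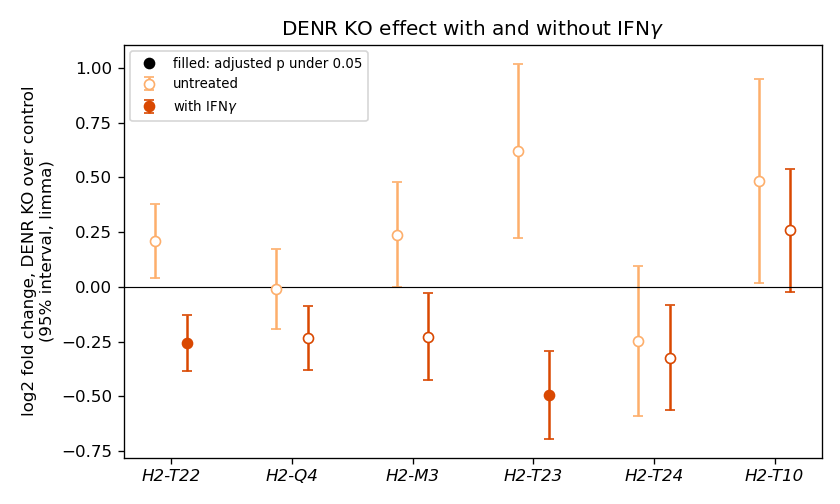
Change on the log2 scale from control to DENR KO cells for 6 genes, untreated (light) and with IFNγ (dark), with the 95% interval of limma. Filled points, H2-T22 and H2-T23 with IFNγ at -0.26 and -0.49, passed an adjusted p of 0.05, and no untreated value did.

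In untreated cells none of the 6 genes passed the limma test in either direction, while 0.429% of 13998 features passed as higher and 0.15% as lower. DESeq2 and edgeR also passed 0 of the 6. The split over all features was 21 lower and 60 higher, or 29 and 44 after median centring. Without control replicate 2 the higher calls numbered 20, and the lower calls numbered 35 without DENR KO replicate 1 and 41 without DENR KO replicate 2. At an unadjusted limma p under 0.05 there were 1295 features, among them H2-T22, H2-T23 and H2-T10. H2-T23 had 98.6 and 74.5 normalized counts in control and 146 and 120 in DENR KO samples (log2 fold change 0.62 ± 0.19, SE, limma adjusted p = 0.209). Here both DENR KO samples lay above both controls, and with all 8 samples in one fit the limma adjusted p was 0.0496.

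H2-T22 had 831 and 791 normalized counts in untreated control and 979 and 897 in DENR KO samples (log2 fold change 0.21 ± 0.08, SE, limma adjusted p = 0.402). H2-M3 had 270 and 283 against 331 and 321 (log2 fold change 0.24 ± 0.12, SE, limma adjusted p = 0.543). H2-T10 had 55.3 and 56.1 against 72.6 and 84.5 (log2 fold change 0.48 ± 0.23, SE, limma adjusted p = 0.527). These 3 did not overlap between groups, with the DENR KO samples higher. H2-T24 had 144 and 143 against 119 and 123 (log2 fold change -0.25 ± 0.17, SE, limma adjusted p = 0.690), with the DENR KO samples lower. H2-Q4 had 666 and 636 against 627 and 667 (log2 fold change -0.01 ± 0.09, SE, limma adjusted p = 0.986), and its groups overlapped. So 4 of 6 genes lay above and 1 below the controls in both DENR KO samples, where 20.4% and 19.6% of all features did.

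Whether the DENR KO effect depended on IFNγ was tested by an interaction term fitted to the 8 samples. It was negative for 6 of 6 genes, with a median of -0.34 against 0.00096 over all features tested. The share of all features with a negative term was not counted, and the lower ratios described above come from the same samples. Of the 6 genes, 2 passed, H2-T23 and H2-T22, while 0.429% of 13998 features passed as lower. These 60 features became 35 without control replicate 2 with IFNγ and 37 without untreated DENR KO replicate 1. For H2-T23 the effect with IFNγ minus that in untreated cells was -1.11 ± 0.20 (log2, SE, limma adjusted p = 0.00651). Its limma adjusted p rose to 0.0947 without untreated DENR KO replicate 1 and to 0.0522 without control replicate 1 with IFNγ. For H2-T22 the difference was -0.46 ± 0.10 (log2, SE, limma adjusted p = 0.0228), and the call was lost on leaving out any of 5 of the 8 samples (limma adjusted p from 0.0535 to 0.261). These 5 were both control samples and DENR KO replicate 2 with IFNγ, and control replicate 2 and DENR KO replicate 1 untreated.

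H2-M3 had a difference of the same size as H2-T22, -0.47 ± 0.15 (log2, SE), but did not pass (limma adjusted p = 0.346). The differences of H2-Q4 (-0.22 ± 0.11, SE), H2-T10 (-0.23 ± 0.24) and H2-T24 (-0.08 ± 0.19) did not pass either. H2-T10 was higher and H2-T24 lower in DENR KO cells under both treatments, without a call.

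**Figure D4:**
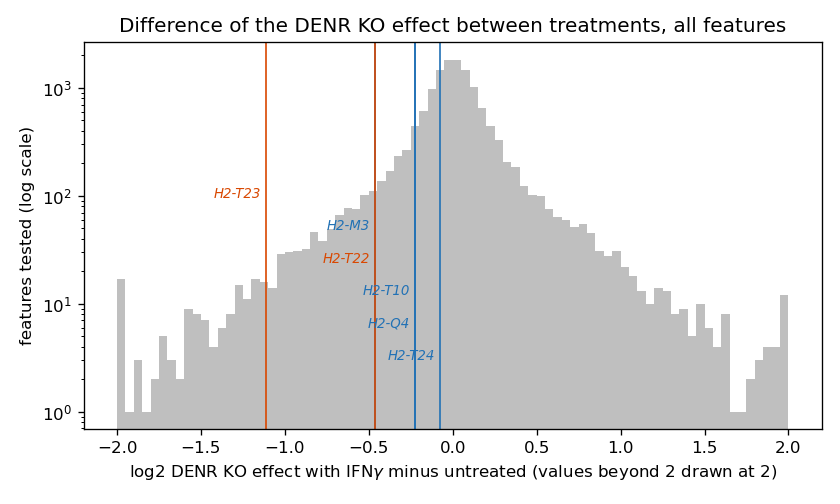
Log2 DENR KO effect compared between treatments (IFNγ minus untreated) for 13998 features (grey, log scale) with 6 genes marked, orange where the adjusted p was under 0.05. H2-T23 lies at -1.11, and H2-M3 and H2-T22 lie together near -0.47.

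In the list of classical class I and peptide loading, 7 of 16 genes were lower in DENR KO cells with IFNγ and none higher (limma, adjusted p under 0.05). Over all features, 2.25% passed as lower and 1.8% as higher. The median log2 fold change of the 16 genes was -0.19. Those 7 were H2-K1, B2m, Tap1, Tapbp, Psmb9, Psmb10 and Psme2. The log2 fold change was -0.31 ± 0.05 (SE) for B2m and -0.51 ± 0.05 for Tap1. H2-K1 changed by -0.25 ± 0.05, H2-D1 had -0.12 ± 0.05 (SE, limma adjusted p = 0.232), and Canx, an ER chaperone, had the smallest change at -0.01 ± 0.05. The count fell to 4 without control replicate 1 and to 3 without DENR KO replicate 2. In untreated cells 0 of the 16 passed by limma, edgeR or DESeq2, and 1, Tapbp, had an unadjusted p under 0.05 by each. Tap1 and Tapbp, a loading chaperone, passed the interaction as lower, as did 0.429% of all features, a count that was below 2 on leaving out any sample except untreated control replicate 1.

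Of 17 transcription factors of class I promoters, 7 were lower with IFNγ and none higher, against the same 2.25% and 1.8% of all features, among them Nlrc5, Irf1, Irf2, Irf8, Irf9 and Stat2. Nlrc5, the transactivator of class I genes, changed by -0.33 ± 0.05 (log2, SE) and Irf1 by -0.52 ± 0.05. Irf8 had the largest fall, -0.75 ± 0.08, and Atf1 the highest value, 0.09 ± 0.07 (limma adjusted p = 0.635). Nlrc5, Irf1 and Irf8 also passed the interaction. In untreated cells 0 of the 16 tested passed by limma, edgeR or DESeq2, and 0 had an unadjusted p under 0.05. Jak2 had a log2 fold change of -0.30 ± 0.06 (SE, limma adjusted p = 0.00644) with IFNγ.

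Of 31 other H2-Q, H2-T and H2-M genes, 8 were listed, with group means of at most 9.13 normalized counts, and none reached the mean of 10 needed for a test. Of 15 class I-like genes outside the H2 region, 8 were tested and 0 passed in either treatment or in the interaction by limma, edgeR or DESeq2. With IFNγ, 2 of the 8 had an unadjusted p under 0.05 by limma, Fcgrt, the neonatal Fc receptor, as higher (log2 fold change 0.34 ± 0.12, SE, limma adjusted p = 0.137) and Ulbp1 as lower. The highest log2 fold change was that of Cd1d1, which presents lipids to NKT cells (0.87 ± 0.43, SE, limma adjusted p = 0.396), and the lowest that of Ulbp1, an NKG2D ligand (-0.55 ± 0.21, SE, limma adjusted p = 0.198).

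The pattern over the 4 groups was compared with 10112 named genes of at least 100 normalized counts, by the Euclidean distance of centred log2 RPM. Nearest to H2-T22 was Ddx58 (distance 0.0768), which encodes the RNA sensor RIG-I. Nearest to H2-T23 were Cx3cl1, a chemokine, at 0.206 and Osmr, a cytokine receptor chain, at 0.266. H2-Q4 was nearest to Nub1 (0.0590) and Ogfr (0.101), and H2-T24 to Parp11 (0.0744) and Slit2 (0.0770). H2-M3 was nearest to Zfp945 (0.0936) and Ggct (0.126), and H2-T10 to Bcl6 (0.177) and 4933412E12Rik (0.247).

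Near-identical copies and overlapping genes limit how reads can be assigned. In the GENCODE transcripts of GRCm38, H2-T10 and H2-T22 shared exact 150-base windows with each other over 0.393% and 0.384% of their windows. H2-Q6 shared 5.99% of its windows with H2-Q7 on the same strand, and H2-Q7 shared 5.90% with H2-Q10, H2-Q6 and H2-Q5. The largest shares among the 8 genes were with genes on the opposite strand: 21.9% of H2-T22 windows with A930015D03Rik, 20.5% of H2-T10 windows with BC023719 and 9.87% of H2-Q4 windows with Gm11131. How strand was handled in counting is not given in the sources used here, so reads in these overlaps cannot be told apart. A930015D03Rik had between 1 and 6 reads per sample and Gm11131 between 7 and 24. H2-T24 and H2-M3 shared no window with another gene, and H2-T23 shared 0.331%, with Gm7030. With H2-T22, H2-T10 and Gm7030 summed, the log2 fold change with IFNγ was -0.22 (limma adjusted p = 0.0389) and the interaction -0.45 (limma adjusted p = 0.0215). Gm7030 shared no window with H2-T22 or H2-T10, and its sum with H2-T23 was not tested.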

How the data were processed

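MC38 cells were profiled by poly-A RNA-seq (150 bp paired ends) in 8 samples. The submitters' processing notes name HISAT2 2.0.5, StringTie 1.3.3b, featureCounts 1.5.0-p3 and DESeq2 1.20.0 with build mm9, whereas the coordinates of the 7 listed genes equal GRCm38. The authors deposited 2 tables, 1 per treatment, of normalized signal (reads divided by a size factor per sample). Their own group means, fold changes and p-values, 10 columns, were not used, and 0 columns belonged to other samples. Reads were recovered as whole multiples of the smallest value.

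Within each table log2(value + 1) was tested with limma 3.58.1 in R 4.3.3 (intensity trend, robust moderation), over features with a mean of at least 10, with Benjamini-Hochberg adjustment over all of them and a two-sided threshold of 0.05. The interaction used the features in both tables. Fold changes on this scale understate the change of low genes. edgeR 4.0.16 and DESeq2 1.42.0 on the recovered reads, other pseudocounts and filters, median centring, summed copies, a replicate block and leaving out each sample were the alternatives. The fits were also checked on simulated counts with 200 changed genes. The test for a normalized signal, planned beside one for raw counts, was used. Total depth limits low genes, such as H2-Q6, by counting error. Whether reads of H2-Q6 were lost to H2-Q7, with which it shares windows, was not tested.

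The genes and the lists were chosen with earlier results of these data known, and the antisense genes after the annotation had been read. Named were all 8 genes, the members of the lists that passed or had the highest or lowest fold change, and the 2 nearest patterns per gene. A few items that this rule names are left unreported. The labels do not say whether same-numbered samples pair, and the main fits treated them as unpaired.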

Additional observations from a re-analysis of the deposited data

Results flagged for a closer look

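The DENR KO effect differed between treatments for H2-T23 by -1.11 (log2, IFNγ minus untreated) and for H2-T22 by -0.46, both by the test of the difference itself. The untreated effects within these differences, 0.62 and 0.21, did not pass (limma adjusted p = 0.209 and 0.402). Either call was lost on leaving out some single samples, as given above. In normalized counts, both DENR KO samples of H2-M3 lay below both controls with IFNγ and above them untreated. With IFNγ the nearest samples had 711 (DENR KO) and 713 (control), and in RPM they overlapped (40.2 and 39.9). The difference between treatments was -0.47 for H2-M3 and did not pass the test (limma adjusted p = 0.346). How often all features change sides in this way was not counted.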

How the results depend on the processing

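Of the 6 genes tested, the number lower with IFNγ was 2 under other pseudocounts, filters, edgeR, DESeq2 and median centring. It was also 2 with summed copies, where H2-T10 was added to H2-T22 and not tested by itself. It was 0 with a log2 fold change beyond 0.5 also required, 1 with all 8 samples in one fit, 5 with the replicate block, and between 1 and 3 on leaving out single samples. In untreated cells 1 gene, H2-T23, passed as higher with all 8 samples in one fit. In the interaction 1 passed with a log2 value beyond 0.5 also required, and between 0 and 2 on leaving out single samples. The log2 fold change of H2-Q4 in untreated cells ranged from -0.054 to 0.036 on leaving out single samples, and was positive without control replicate 1 (0.025) and without DENR KO replicate 1 (0.036). The log2 IFNγ response of H2-M3 in DENR KO cells ranged from 0.91 to 1.16 on leaving out single samples, where 1 is the 2-fold limit. Of the classical and peptide loading genes, 1 was lower with IFNγ with a log2 fold change beyond 0.5 also required, and between 3 and 9 on leaving out single samples. The cause of these changes was not tested, beyond the smaller number of samples or the stricter rule. With 1 sample left in an arm, that sample is assumed to vary like the others.

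The replicate block was fitted although no label pairs the samples. The correlation of same-numbered deviations was 0.0964 with IFNγ and 0.0138 untreated. With IFNγ, replicate 1 lay above replicate 2 in both genotypes for H2-Q4, H2-T22, H2-T23 and H2-M3, but not for H2-T10 and H2-T24. The block called 729 features lower and 726 higher with IFNγ against 314 and 251 without it, and 89 and 168 against 21 and 60 untreated. The larger number of genes called with the block thus rests on a pairing that is not settled. DESeq2 called 134 higher with IFNγ. Median centring called 29 lower and 44 higher in untreated cells. With a log2 fold change beyond 0.5 also required, 143 and 72 were called with IFNγ and 12 and 18 untreated.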
